A study of Mus musculus with 8 samples.

Results

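The peaks described here were the places outside protein-coding genes where H3K79me2 was called in cultured spermatogonial stem cells given the DOT1L inhibitor EPZ5676 but was not called in the vehicle control. They were chosen as the EPZ5676 peaks on chromosomes 1 to 19 that overlapped no control peak and no span of a RefSeq protein-coding gene by even 1 bp. Of the 9182 EPZ5676 peaks, 2415 (26.3%) met this rule, and together they covered 915 kb, or 19.7% of the length under all EPZ5676 peaks. The members were thus chosen by measured values, the peak calls of both lists. Of the 4063 EPZ5676 peaks without a control peak, 59.4% lay outside protein-coding genes. Their absence from the control list and their place outside genes were therefore set by the rule and are no finding.

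The study mapped H3K79me2 by chromatin immunoprecipitation and sequencing in spermatogonial stem cells of the mouse, which sustain sperm production. Testes of ROSA mice (strain B6.129S7-Gt(ROSA)26Sor/J) aged 7 days were the source, and culture had lasted 2 months on SNL 76/7 feeders, a mouse fibroblast line, without serum and with GDNF at 10 ng/mL and FGF2 at 0.5 ng/mL. Both groups shared the strain, feeders and growth factors, and differed in 7 days of 2 µM EPZ5676 or of vehicle, which the protocols name as DMSO and the sample descriptions as EtOH. The 8 libraries formed 4 groups of 2, H3K79me2 and input for each condition, but 1 peak list was analysed per condition, so no difference between conditions has a replicate check and none was tested. The labels name no step that separates germ cells from feeders, and in bulk chromatin a mark in fewer cells and a weaker mark in each cell cannot be told apart.

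DOT1L is the methyltransferase that places methyl groups on lysine 79 of histone H3, in the globular core of the nucleosome. It travels with elongating RNA polymerase II, so H3K79me2 is best known as a broad domain over the bodies of transcribed genes, strongest towards their starts. Outside genes the mark has been described at some enhancers and over transcripts that lie between genes. EPZ5676, also called pinometostat, blocks DOT1L by competing for its methyl donor.

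The labelled cell type was checked through the control peaks, which 54.2% of all autosomal protein-coding genes carried in their span. Of 23 genes typical of undifferentiated spermatogonia, 18 carried one, as did all 11 genes of spermatogonial differentiation, 13 of 16 genes of meiosis, 3 of 12 genes of spermiogenesis and 5 of 11 pluripotency genes. Among other cell types, 11 of 16 genes typical of fibroblast feeder cells, 6 of 18 genes of testis somatic cells and 2 of 19 genes of unrelated tissues carried one. The mark thus did not single out undifferentiated spermatogonia from other germ cell stages. Genes on both the germ cell and the feeder lists carried it, but so did 54.2% of all genes. The 11 of 16 feeder genes therefore do not tell whether feeder chromatin was in the sample. The fibroblast genes without a control peak were Col1a2, Col3a1, Dcn, Lum and Vim, of collagens, small proteoglycans and vimentin, while those with one included Twist2 and Fn1. The genes of undifferentiated spermatogonia without one were Eomes, Pax7, Shisa6, T and Tspan8. The part of each cell type in the peaks below was not tested.

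A few of the peaks lay on annotated starts of transcripts. The rule removes peaks that touch a protein-coding span or a control peak, so peaks over the start of a protein-coding gene could not be members. In windows from 250 bases before to 50 after each RefSeq start, 9 peaks (0.373%) covered bases of 11 windows of 9 genes, of which 8 were lncRNA genes and 1, Gm12253, was protein-coding. In all there were 31396 such windows of 25748 autosomal genes. The 5 windows below are those under the highest fold (Gm36772), under the widest peak (Gm30663), wholly under a peak (Gm34756 and Gm38636) and next to the TGF-beta receptor gene Tgfbr2 (D730003K21Rik). They are given 5′ to 3′ from RefSeq GRCm38.p6, with the bases under the peak in capitals. They lie at chr11:8799548-8799847 on the minus strand, chr15:7034150-7034449 on the plus strand, chr14:46480978-46481277 on the plus strand, chr13:36719313-36719612 on the plus strand and chr9:116327073-116327372 on the plus strand, in the order printed.
Gm36772: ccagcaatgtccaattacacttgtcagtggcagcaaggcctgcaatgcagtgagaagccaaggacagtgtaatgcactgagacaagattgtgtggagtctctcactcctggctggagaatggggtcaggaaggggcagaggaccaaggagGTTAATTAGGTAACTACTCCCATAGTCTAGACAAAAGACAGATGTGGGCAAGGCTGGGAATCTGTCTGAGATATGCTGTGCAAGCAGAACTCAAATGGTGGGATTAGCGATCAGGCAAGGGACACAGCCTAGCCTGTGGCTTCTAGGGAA
Gm30663: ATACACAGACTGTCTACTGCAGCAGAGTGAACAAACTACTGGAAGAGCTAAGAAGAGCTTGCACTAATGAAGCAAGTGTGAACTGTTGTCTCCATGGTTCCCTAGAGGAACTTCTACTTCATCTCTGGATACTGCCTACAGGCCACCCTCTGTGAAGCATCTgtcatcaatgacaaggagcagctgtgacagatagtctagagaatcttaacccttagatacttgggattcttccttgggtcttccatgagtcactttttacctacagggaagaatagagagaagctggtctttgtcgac
Gm34756: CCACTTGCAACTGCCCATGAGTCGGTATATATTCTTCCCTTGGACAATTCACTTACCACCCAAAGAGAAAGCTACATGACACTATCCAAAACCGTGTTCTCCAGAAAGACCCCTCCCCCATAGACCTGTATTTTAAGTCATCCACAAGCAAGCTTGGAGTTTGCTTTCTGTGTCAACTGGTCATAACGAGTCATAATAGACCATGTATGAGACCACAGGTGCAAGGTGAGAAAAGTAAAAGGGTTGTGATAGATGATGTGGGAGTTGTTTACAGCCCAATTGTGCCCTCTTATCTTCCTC
Gm38636: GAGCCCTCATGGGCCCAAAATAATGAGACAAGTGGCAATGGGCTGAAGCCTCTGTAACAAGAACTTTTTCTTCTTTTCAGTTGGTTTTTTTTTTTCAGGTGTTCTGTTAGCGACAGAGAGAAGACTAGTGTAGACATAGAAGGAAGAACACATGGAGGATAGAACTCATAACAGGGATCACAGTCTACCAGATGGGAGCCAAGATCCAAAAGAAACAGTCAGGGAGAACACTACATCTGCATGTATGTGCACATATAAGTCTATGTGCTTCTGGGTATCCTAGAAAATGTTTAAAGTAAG
D730003K21Rik: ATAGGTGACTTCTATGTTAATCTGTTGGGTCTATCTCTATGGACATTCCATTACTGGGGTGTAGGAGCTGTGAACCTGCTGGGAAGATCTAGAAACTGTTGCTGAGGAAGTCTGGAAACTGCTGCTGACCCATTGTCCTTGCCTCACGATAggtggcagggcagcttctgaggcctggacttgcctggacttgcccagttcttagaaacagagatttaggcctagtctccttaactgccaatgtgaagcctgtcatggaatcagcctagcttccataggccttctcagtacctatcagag

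These were not CpG-rich promoters, and by their medians neither were lncRNA windows as a whole. The 11 windows held 1 to 4 CpG dinucleotides and 40.7% to 50.7% G and C, beside medians of 4 CpG and 48.3% over all lncRNA windows and of 14 CpG and 57% over all protein-coding windows in the table. Because the rule leaves out peaks over protein-coding spans and over control peaks, the difference from protein-coding windows is no finding. Gm36772 lies between Tns3, which encodes a focal adhesion protein, and Pkd1l1, and its 202-bp peak had a fold enrichment of 3.44 and a −log10 q of 3.06. The peak at Gm30663 lay 158 kb from Osmr and 56.3 kb from Lifr, which encode receptors of the interleukin-6 family, and was 1144 bp wide with a fold of 2.89. At Gm34756, the 478-bp peak lay 90.3 kb from Bmp4, a secreted ligand of the BMP pathway, and had a fold of 2.61. At Gm38636, the 489-bp peak lay 5.89 kb from Nrn1 and had a fold of 2.76. At D730003K21Rik, the 440-bp peak lay 151 kb from Tgfbr2 and 246 kb from Rbms3 and had a fold of 2.69.

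The peaks were small and weak, and in this they resembled the inhibitor-only peaks inside genes. The fold enrichment, the −log10 q and the peak limits are the authors' own values for each peak and are used here to describe peaks within 1 list. The median width of the 2415 peaks was 342 bp (quartiles 228 to 476.5 bp, range 147 to 1850 bp), beside 350 bp for the 1648 inhibitor-only peaks inside protein-coding genes. EPZ5676 peaks that overlapped a control peak had median widths of 460 bp inside genes (5000 peaks) and 491 bp outside them (119 peaks). Only 1.33% of the peaks (32 of 2415, 95% exact binomial interval 0.908% to 1.87%) reached 1000 bp, against 1.94% of inhibitor-only peaks in genes and 13.8% of peaks in genes that overlapped a control peak. At the other end, 5.18% were at the shortest width in the list, 147 bp, about the length of DNA on 1 nucleosome, against 3.58% and 1.96% in those same classes. Intervals here and below cover counting error only, and the sequencing depth behind the lists is unknown.

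**Figure D1:**
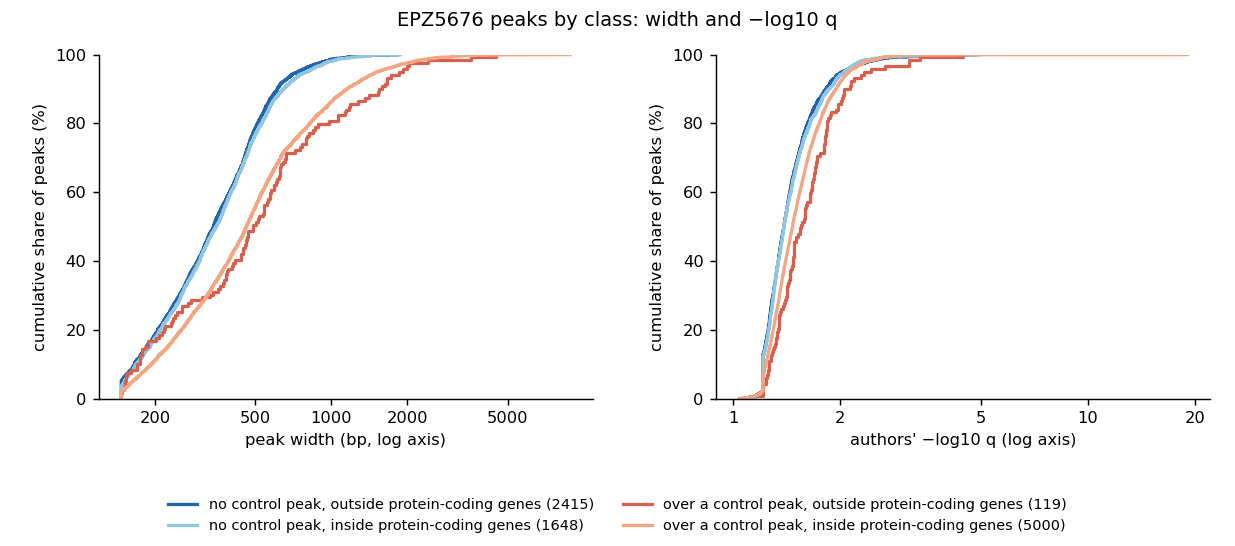
Cumulative share of EPZ5676 peaks (vertical axes, percent) by width in bp (left, log axis) and by the authors' −log10 q (right, log axis), with 1 line for each of 4 classes and the number of peaks in brackets. The 2 lines of inhibitor-only peaks, inside and outside genes, lie close together, and over most of their range both lie left of the lines of peaks that overlap a control peak.

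Fold enrichment spanned a narrow range, from 1.70 to 3.61 with a median of 2.73 (quartiles 2.67 to 2.82). The medians of the other classes were 2.74, 2.77 and 2.79, and the highest fold in the whole list was 5.22. The median −log10 q was 1.39, with quartiles of 1.27 and 1.56, and equalled that of inhibitor-only peaks in genes to 2 decimals. A −log10 q of at least 2 was reached by 132 peaks (5.47%, interval 4.59% to 6.45%), against 5.89% of inhibitor-only peaks in genes, 8.04% of peaks in genes over a control peak and 14.3% of peaks outside genes over a control peak. The 1642 peaks with a −log10 q from 1 to 1.5 had a median width of 352 bp, and the 115 peaks from 2 to 3 had a median width of 197 bp with 13.0% at the shortest width. The peaks with better q values were thus mostly narrower and not wider, except for the 17 peaks at 3 or more, whose median width was 451 bp.

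The rule has sharp edges, and peaks on both sides of them looked alike. The 3 peaks closest to a control peak lay 2, 34 and 75 bp from it, with folds of 2.60, 2.93 and 3.06. On the other side, the 3 EPZ5676 peaks outside genes with the shortest overlap shared 15, 22 and 58 bp with a control peak and had folds of 2.67, 2.97 and 2.73; the one with 22 bp lay over Pvt1 and the one with 58 bp over Junos. At the gene edge, the 3 closest peaks lay 71, 172 and 219 bp from a protein-coding gene, with folds of 2.84, 2.15 and 2.76. Those just outside the rule shared 11, 11 and 90 bp with one and had folds of 2.71, 2.66 and 2.45.

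Peaks lay on every autosome, from 44 on chromosome 19 to 201 on chromosome 1. Per Mb of sequence outside protein-coding genes and control peaks they ranged from 1.17 on chromosome 5 to 2.07 on chromosome 15, with 1.71 over all 19 autosomes. The comparison used below is the same for all positional shares: 1411778 positions on a 1-kb grid that lay outside protein-coding genes and control peaks. Each position is a single base, while the peaks are intervals. How many of these positions reads could be mapped to was not tested.

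The peaks were rare in the largest gene deserts and also rare right beside genes. The median distance to the nearest protein-coding gene was 68.6 kb (quartiles 23.8 to 173.9 kb), and that of the grid positions was 83.4 kb (19.2 to 286.4 kb). Only 4.27% of the peaks (103, interval 3.49% to 5.15%) lay over 500 kb from a gene, against 14.3% of positions, and only 1.12% lay within 1 kb of one, against 2.27% of positions. Within 50 kb of a gene were 1027 peaks (42.5%), close to the 40.6% of positions. The most remote peak, chr2:46895553-46895746, lay 1778 kb from Zeb2, a transcription factor gene of mesenchymal cells, and 1918 kb from Acvr2a, which encodes an activin receptor.

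A similar picture held for control peaks. The median distance to the nearest one was 134.6 kb (quartiles 54.7 to 287.4 kb), against 217.2 kb for positions (57.8 to 606.0 kb). Within 100 kb of a control peak lay 40.9% of the peaks and 34.1% of positions, within 10 kb lay 4.68% and 6.75%, and within 1 kb lay 0.497% and 0.831%. Within 50 kb were 572 peaks (23.7%, interval 22.0% to 25.4%), beside 22.9% of positions, so the share changed from below to above that of the positions as the distance grew.

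**Figure D2:**
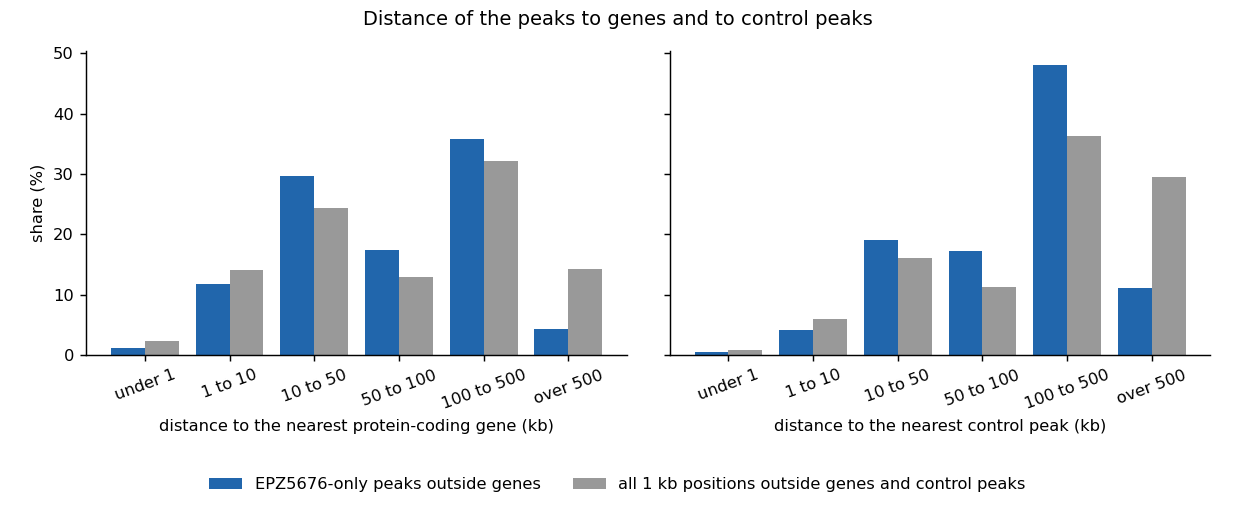
Share in percent (bars, from 0) of the 2415 peaks and of the 1-kb grid positions by distance in kb to the nearest protein-coding gene (left) and to the nearest control peak (right). The share of peaks over 500 kb from a gene was 4.27%, against 14.3% of positions.

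Many peaks had a marked gene as their nearest gene. A control peak was present in the nearest protein-coding gene of 1349 peaks (55.9%, interval 53.9% to 57.9%), against 47.6% of positions. An EPZ5676 peak was present in the nearest gene of 779 peaks (32.3%, interval 30.4% to 34.2%), against 24.1% of positions. Both were present for 23.2% of peaks and 16.4% of positions, and neither for 35.1% and 44.7%. The nearest gene had an EPZ5676 peak but no control peak for 9.03% of the peaks, against 7.68% of positions. Neighbouring peaks share a nearest gene, so they are not independent.

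Most peaks stood alone. Joined where gaps were at most 10 kb, the 2415 peaks formed 2228 runs, of which 2075 were single peaks, 126 held 2, 22 held 3, 4 held 4 and 1 held 6. The run with the most bases under peaks (2881 bp in 4 peaks) lay at chr4:55930515-55947014, 398 kb before the start of Klf4, a zinc-finger transcription factor gene used in reprogramming to pluripotency. The run of 6 peaks lay at chr9:24962589-24996630, over the lncRNA gene E130101E03Rik, and covered 2696 bp. Its nearer protein-coding neighbour was Herpud2 at 111 kb, and Tbx20, a T-box transcription factor gene known from the heart, lay 188 kb away on the other side. Others among the 10 runs with most bases lay at chr6:18333424-18353684 between Cftr, the chloride channel gene of cystic fibrosis, and Cttnbp2 (3 peaks, 1793 bp), at chr2:61527956-61538409 over lncRNA gene Gm33841 between Rbms1 and Tank (3 peaks, 1888 bp) and at chr4:89025755-89036993 over Gm34568 between Ifne and Mtap (3 peaks, 1951 bp). Another, at chr8:37099540-37102567 (2 peaks, 1743 bp), lay 104 kb from AI429214 and 415 kb from Sgcz. The remaining 2 of several peaks were next to multicopy genes, at chr17:36209455-36218689 over the pseudogene Gm5682, 19.3 kb from the histocompatibility gene H2-T3, and at chr5:15608078-15625198 over Gm30417 among Speer genes.

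On a coarser scale some stretches held many peaks. Of 2394 windows of 1 Mb, 1114 (46.5%) held at least 1 peak, the mean was 1.01, and 24 windows held 8 or more. These windows were named after their values were seen. The fullest was a defensin gene region on chromosome 8 with 17 peaks, described further on. Next came 11 peaks in a window of chromosome 1 with no protein-coding gene, flanked by the nuclear receptor gene Nr5a2 at 39.6 kb and by Ptprc, which encodes the leukocyte antigen CD45, at 62.9 kb.

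**Figure D3:**
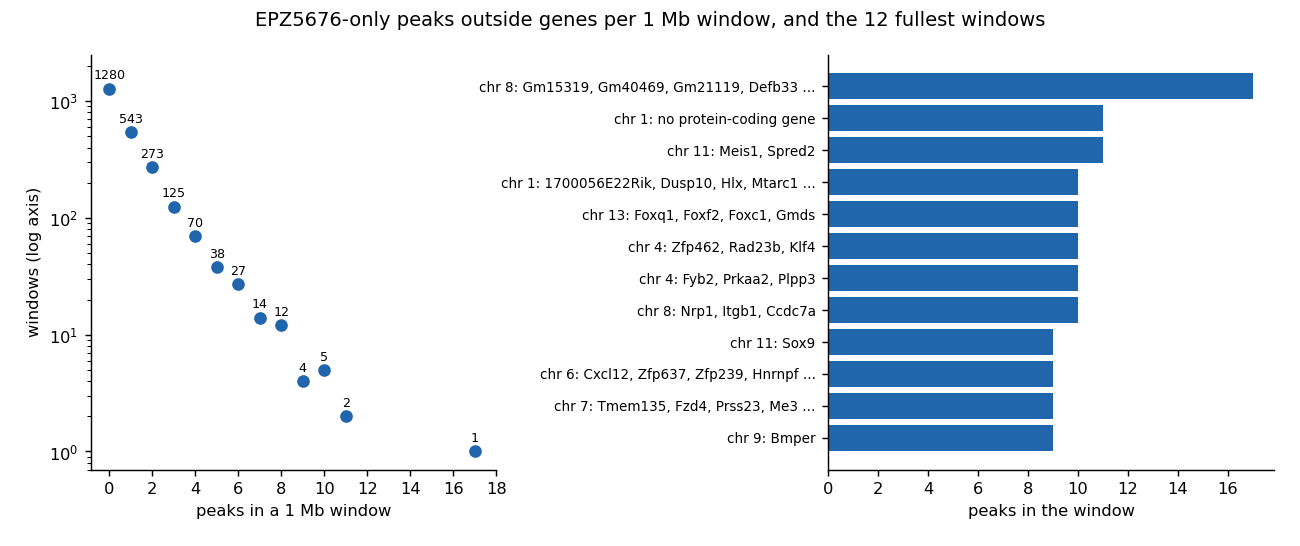
Left, number of 1-Mb windows (log axis) against the number of peaks they hold. Right, peaks in each of the 12 fullest windows (bars, from 0), labelled by chromosome and protein-coding genes. The fullest window held 17 peaks and 1280 windows held none.

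In these windows the nearest protein-coding gene of the peaks was often one gene, but not always the best known. All 10 peaks of the window with Klf4, Rad23b and Zfp462 had Klf4 as their nearest gene, before its start at 50.8 to 414 kb, with widths of 191 to 1236 bp and folds of 2.54 to 3.00. Sox9, which directs Sertoli cell and cartilage development and was the only protein-coding gene in its window, was nearest to 6 of the 9 peaks there, at 93.6 to 284 kb, and Gm11677 to the other 3. All 9 EPZ5676 peaks of that window belonged to the set, and Sox9 itself had no bases under a control or EPZ5676 peak. The window shared by Spred2, an inhibitor of ERK signalling, and the homeobox gene Meis1 held 11 peaks, of which 9 were nearest to Spred2 at 195 to 281 kb and 2 to Meis1 at 129 and 397 kb. The window shared by Dusp10, a phosphatase gene of MAP kinases, and the homeobox gene Hlx held 10 peaks. Dusp10 was nearest to 6 of these at 11.3 to 316 kb, and Hlx to 4 at 19.6 to 146 kb, including one of 1671 bp that was among the widest of the set. The window of Foxq1, Foxf2, Foxc1 and Gmds held 10 peaks, of which 4 were nearest to Foxq1 at 178 to 241 kb, 3 to Foxf2 at 15.9 to 37.9 kb and 3 to Exoc2 at 29.5 to 164 kb. The list of mesenchymal and limb transcription factor genes is described further on.

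The remaining windows among the 12 fullest held other kinds of genes. The window of Nrp1, a coreceptor of VEGF and semaphorins, and Itgb1, the integrin beta 1 gene, held 10 peaks among 32 EPZ5676 peaks, with a median fold of 2.97 and a median −log10 q of 1.84. Nrp1 carried 22455 bp of EPZ5676 peaks and 28969 bp of control peaks in its span, so Nrp1 itself was called in both conditions. Bmper, which encodes a secreted regulator of BMP signalling, was nearest to 8 of the 9 peaks in its window at 33.2 to 101 kb, and its span held 751 bp of EPZ5676 peaks and no control peak. Cxcl12, a chemokine gene of stromal cells, was nearest to 8 of 9 at 8.82 to 285 kb. Plpp3, which encodes a lipid phosphate phosphatase, was nearest to 6 of 10 at 26.2 to 241 kb, and Usp24 to the other 4. Prss23, a serine protease gene, had 5 peaks within 50 kb covering 2761 bp, and its span held 3082 bp of control and 3029 bp of EPZ5676 peaks.

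The widest single peaks had ordinary enrichment. The widest, 1850 bp at chr6:127229165-127231014, lay 77.0 kb from Ccnd2, which encodes cyclin D2, and 216 kb from Parp11, with a fold of 2.72 and a −log10 q of 1.34. Next was one of 1843 bp at chr2:6252904-6254746 over lncRNA gene A230108P19Rik, 39.9 kb from Echdc3 and 68.0 kb from Usp6nl, with a fold of 2.81. The remaining 8 of the 10 widest measured 1314 to 1671 bp, and their neighbours included Hlx, Lpp, which encodes a focal adhesion protein and had 249422 bp under control peaks, Tmem100, Cwc22, a splicing factor gene, and Mtap. The highest −log10 q among the 10 widest was 1.66.

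The strongest single peaks were mostly others. The 10 widest, the 10 of highest fold and the 10 of highest −log10 q comprised 28 different peaks, 2 of them in more than 1 of these choices. The highest fold, 3.61, belonged to a 179-bp peak at chr11:90692234-90692412, 3.96 kb from Tom1l1, an adaptor protein gene, with a −log10 q of 3.52. A 710-bp peak at chr2:24263676-24264385, over the pseudogene Gm13409 and 12.6 kb from the interleukin-1 family gene Il1f5, had a fold of 3.60 and a −log10 q of 3.59. Others of the 10 with highest fold lay 265 kb from Smad2, a TGF-beta signal transducer gene (3.41), between Tprg and Trp63, which encodes the epithelial transcription factor p63 (3.41), 70.4 kb from Igfbp7 (3.40) and 315 kb from Pik3r1, a PI3 kinase subunit gene (3.34). Actl9, a testis actin-like gene, had a peak 1.05 kb away with a −log10 q of 3.44, and a peak 79.1 kb from Insc had 3.34.

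Many of the peaks of highest −log10 q lay in a defensin gene region and in Speer gene regions. The 17 peaks of the 20 to 21 Mb window of chromosome 8, which holds the antimicrobial gene Defb33 and the predicted genes Gm15319, Gm40469 and Gm21119, had a median fold of 2.25 (range 1.70 to 2.71) and a median −log10 q of 1.75 (up to 4.93). Low fold and high −log10 q occurred together there: the 3 highest −log10 q values of the set, 4.93, 4.75 and 4.28, came with folds of 2.503, 2.35 and 1.84. The 14 peaks of the Speer gene regions of chromosome 5, named for a family of genes expressed in male germ cells, had a median fold of 2.61 and a median −log10 q of 1.59. Both regions together held 9 of the 17 peaks with a −log10 q of 3 or more and 16 of the 46 with a fold under 2.5, although they held only 31 of 2415 peaks. The remaining 2384 peaks had a median fold of 2.73 and a median −log10 q of 1.39.

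**Figure D4:**
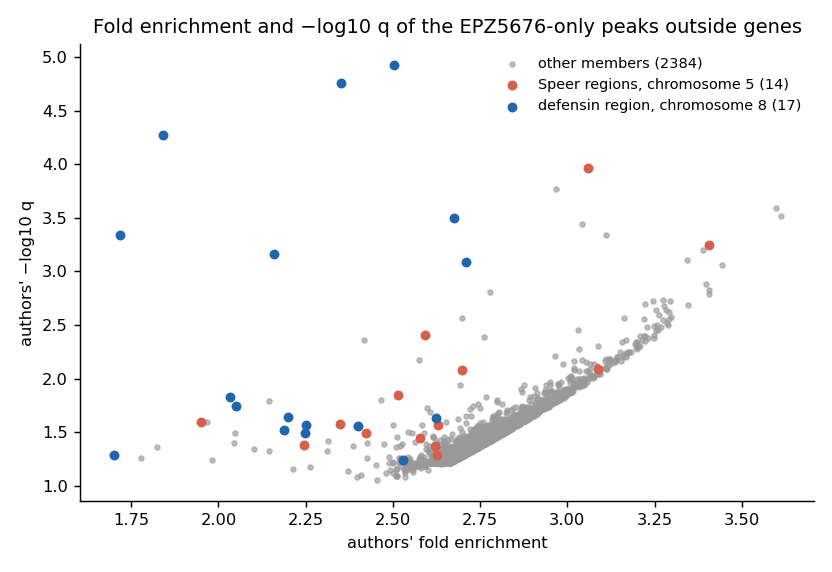
The authors' fold enrichment (horizontal) and −log10 q (vertical) of each of the 2415 peaks, with 1 point per peak. Most points follow 1 rising band, and the points of the defensin region, with folds of 1.70 to 2.71, lie left of it, as do many of the Speer regions.

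A pair of promoters in the Speer regions shows how alike genes there can be. Gm1979 and Gm21671 are predicted protein-coding genes on chromosome 5, and the 250 bases before their starts were identical at 246 positions (98.4%). The nearest peak was 4.31 kb from the promoter window of Gm1979 and 6.62 kb from that of Gm21671. The sequences are from RefSeq GRCm38.p6, 5′ to 3′, at chr5:26004728-26004977 and chr5:25954345-25954594, both on the minus strand, with the differing bases in capitals. Counted from 1 at the 5′ end, Gm21671 differed from Gm1979 by A85C, A116C, C176A and T178C.
Gm1979: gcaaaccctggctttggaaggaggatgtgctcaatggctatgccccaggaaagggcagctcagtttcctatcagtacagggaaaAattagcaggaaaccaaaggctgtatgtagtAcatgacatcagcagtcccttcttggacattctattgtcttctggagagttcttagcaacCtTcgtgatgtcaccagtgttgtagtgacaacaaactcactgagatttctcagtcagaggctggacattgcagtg
Gm21671: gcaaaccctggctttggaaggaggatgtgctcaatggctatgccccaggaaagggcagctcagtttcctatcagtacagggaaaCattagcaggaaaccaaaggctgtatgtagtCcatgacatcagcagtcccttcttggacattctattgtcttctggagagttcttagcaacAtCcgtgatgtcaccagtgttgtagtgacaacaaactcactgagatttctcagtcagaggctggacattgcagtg

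Protein-coding genes with most peak bases within 50 kb came from the same regions. Of 20665 autosomal protein-coding genes, 1349 (6.53%) had at least 1 of the peaks within 50 kb, 1111 of them exactly 1, and 49 had 3 or more. Among the 10 genes with most bases, 7 were on chromosome 5 in the Speer regions, led by Gm21698 with 7 peaks and 4068 bp, and 1 was Gm40469 on chromosome 8 with 9 peaks and 3205 bp. The other two were Prss23 and the predicted gene 4930432M17Rik on chromosome 3, with 5 peaks and 2543 bp. A peak was counted for each gene it neighbours, so genes close to each other share peaks. Gm1979, Gm5862 and Speer4a, for example, each had 6 peaks and 2785 bp. How reads that match several copies were placed is not stated in the labels, and its part in these values was not tested.

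Noncoding genes lay under a minority of the peaks. A lncRNA gene, other RNA gene, pseudogene or antigen receptor segment overlapped 447 peaks (18.5%, interval 17.0% to 20.1%), against 14.2% of positions. Of these, lncRNA genes accounted for 378 peaks (15.7%), against 11.9% of positions, and pseudogenes for 59 (2.44%), against 1.67% of positions. A peak is an interval counted at any overlap and a position is a single base, so a peak meets a short gene more readily. The shares of peaks and positions are therefore unlike measures here, and the part of this in the differences was not tested. In all 390 of 26377 noncoding genes (1.48%) had a peak, 324 of them lncRNA genes and 360 of them known only by provisional Gm or Rik names. Antigen receptor loci are not annotated as protein-coding genes and so entered the set: the immunoglobulin heavy chain locus Igh held 6 peaks and 3086 bp, and the T cell receptor alpha locus Tcra held 4 peaks and 1638 bp. These loci span 2751 kb and 1796 kb, of which the peaks covered 0.112% and 0.0912%.

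Among lncRNA genes, Mir100hg stood near the top and is the host of a microRNA cluster. Its span, chr9:41376526-41615185, held 6 peaks of 174 to 904 bp covering 2580 bp, with folds of 2.66 to 2.82, beside 7764 bp under control peaks, so in both conditions part of the gene was called. Gm34568 between Ifne and Mtap held 2649 bp in 3 peaks, and Gm33906 between Tmtc4 and the sodium leak channel gene Nalcn held 2302 bp in 7 peaks. Gm29683 held 1675 bp in 3 peaks and lies 14.1 kb from Nr2f2, an orphan nuclear receptor gene of testis interstitial and other mesenchymal cells. Gm34568, Gm33906 and Gm29683 had no control peak in their spans. Of 35 autosomal genes on a list of known noncoding RNAs, 3 held a peak (Mir100hg, Mir99ahg and the Myc neighbour Pvt1), or 8.57% beside 1.48% of all noncoding genes. Gene length was not taken into account there, a longer span has more room for a peak, and that of Mir100hg is 238.66 kb. Whether length accounts for the difference was not tested.

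No microRNA hairpin lay under a peak among 919 on the autosomes, but the rule itself keeps peaks off any hairpin inside a protein-coding gene. Within 10 kb of a peak lay 10 hairpins (1.09%), beside 1.59% of protein-coding genes. Of these 10 hairpins, 3 were in the Mir100hg cluster: Mir100 at 1.70 kb, Mir125b-1 at 5.44 kb and Mirlet7a-2 at 6.99 kb. The RefSeq mature sequences of the cluster's miR-100 and miR-125b are given 5′ to 3′ with the seed, bases 2 to 8, in capitals, to show which regulators the peaks neighbour. They lie on the plus strand of GRCm38.p6 at chr9:41531437-41531458 and chr9:41581940-41581961. Their seeds differ, so they form separate families.
mmu-miR-100-5p: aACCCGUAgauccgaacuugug
mmu-miR-125b-5p: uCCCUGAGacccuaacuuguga

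The gene lists were chosen with earlier results of these data known, so their shares are descriptions and not tests. Genes of the extracellular matrix and of secreted regulators were the list with the largest share beside a peak. Of 29 autosomal genes on it, 10 (34.5%) had a peak within 50 kb, against 6.53% of all protein-coding genes, and the list's median was 0 bp of peak, as it was in every list. The flanks of these genes also held more sequence in which a peak of the set could lie, with a median of 84 kb against 55 kb over all genes. Per Mb of that sequence, with a peak counted once for each gene it neighbours, there were 5.81 peaks beside the list and 1.43 beside all genes. Col6a3, a collagen VI gene, had the most, with peaks of 921 bp at 43.1 kb past its end and 359 bp at 16.1 kb before its start. Grem1, which encodes a BMP antagonist, had 2 peaks before its start at 4.07 and 16.4 kb, with folds of 3.07 and 2.95. Col6a1 had a 474-bp peak 15.5 kb past its end. Ccn1, a matricellular protein gene, had a 456-bp peak 18.6 kb before its start.

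The remaining members of that list each had less. Inhba, the activin beta A gene, had a 381-bp peak 1.19 kb before its start with a fold of 2.91. Bmp4 had a 370-bp peak 13.0 kb before its start, and Thbs1, Thbs2 and Loxl1, genes of thrombospondins and of a collagen crosslinking enzyme, had peaks at 33.2, 35.5 and 38.3 kb. Tgfb2 had 2 peaks past its end, at 48.8 and 49.5 kb. Within 10 kb, only 2 of the 29 genes had a peak (6.90%, against 1.59% of all genes). With only peaks of a −log10 q of at least 2 the list's count was 1 of 29 (3.45%, against 0.542% of all genes), and with only peaks of at least 500 bp it was also 1 of 29 (3.45%, against 1.69%).

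**Figure D5:**
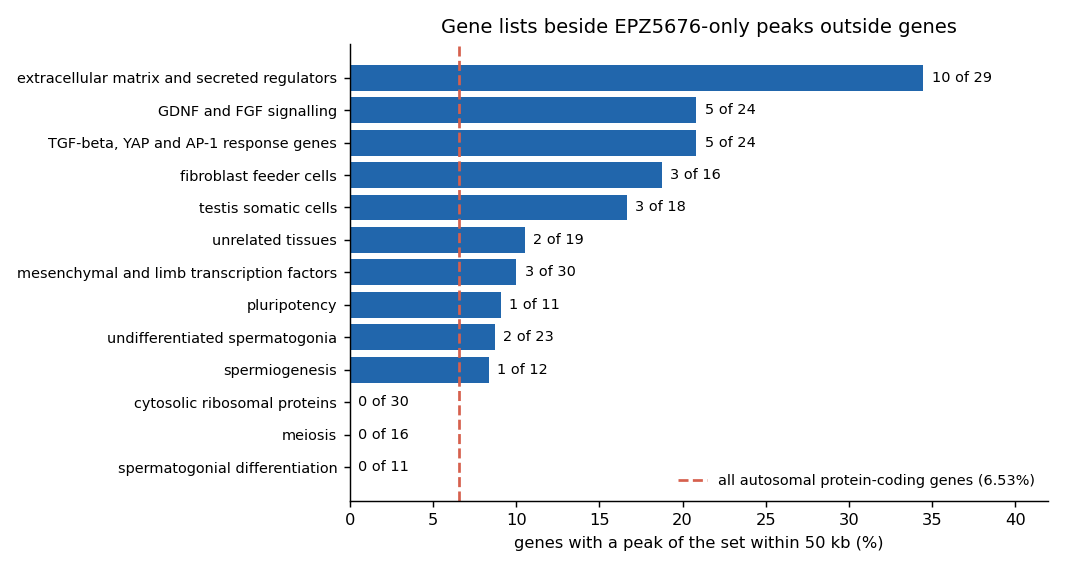
Share of the autosomal genes of each of 13 lists with a peak of the set within 50 kb (bars, percent, from 0), with counts beside the bars. The dashed line marks 6.53%, the share over all autosomal protein-coding genes. The list of extracellular matrix and secreted regulators reaches 34.5% and 3 lists are at 0.

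Signalling lists came next. Of 24 TGF-beta, YAP and AP-1 response genes, 5 (20.8%) had a peak within 50 kb: Lats2, a kinase gene of the Hippo pathway, with 1155 bp in 2 peaks, and Ccn1, Tgfb2, Axl and Fosl2. Ccn1 and Tgfb2 are also on the matrix list. On the list of GDNF and FGF signalling, which the added growth factors act through, 5 of 24 genes (20.8%) had one. These were the kinase gene Fyn with 731 bp, the receptor gene Fgfr2 with 632 bp, Lyn, Gfra1 and Dusp6, which encodes a phosphatase of ERK. Per Mb of flanking sequence open to such a peak, the values were 4.18 and 4.19. Within 10 kb, 0 of the 24 response genes and 1 of the 24 genes of GDNF and FGF signalling had a peak. With only peaks of a −log10 q of at least 2 these counts were 1 and 0, and with only peaks of at least 500 bp also 1 and 0. All 24 genes of GDNF and FGF signalling had a control peak in their span, against 54.2% of all genes, as did all genes of some other lists. An EPZ5676 peak was present in 10 of the 24, against 13.1% of all genes.

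Lists of somatic cell types had shares between those of the signalling lists and the background of 6.53%. Of the fibroblast feeder genes, 3 of 16 (18.8%) had a peak within 50 kb: Twist2, a mesenchymal transcription factor gene, with a 569-bp peak 5.07 kb before its start, Fn1, the fibronectin gene, 38.4 kb from a 477-bp peak with a fold of 3.07, and Vim, 12.3 kb from a 175-bp peak. In their own spans, 11 of the 16 fibroblast genes had a control peak, against 54.2% of all genes, and 5 had an EPZ5676 peak, against 13.1%. Of 30 mesenchymal and limb transcription factor genes, 3 (10.0%) had one within 50 kb (Foxf2 with 3 peaks and 1727 bp, Zeb2 and Fosl2), and 0 had one within 10 kb. Of 18 testis somatic genes, 3 (16.7%) had one: Acta2, the smooth muscle actin gene of peritubular cells, with peaks 1.86 and 5.97 kb before its start covering 818 bp, Nr2f2, and Inhba, which the matrix list also holds. Acta2 had no bases under either list's peaks in its own span. Without peaks over any annotated gene, the testis somatic count was 0 of 18, the fibroblast count 2 of 16 and the transcription factor count 3 of 30, against 5.66% of all genes. Per Mb of flanking sequence open to such a peak, the values were 2.36 for the fibroblast list, 1.96 for the transcription factor list and 3.94 for the testis somatic list, against 1.43 beside all genes.

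Germ cell lists were close to the background of 6.53% or at 0. Of 23 genes of undifferentiated spermatogonia, 2 (8.70%) had a peak within 50 kb. Gfra1, the GDNF coreceptor gene that marks stem cells, had one of 211 bp 13.3 kb past its end, while its span held 96347 bp of control and no EPZ5676 peak. Shisa6 had one of 158 bp at 37.0 kb. None of 11 genes of spermatogonial differentiation, 16 of meiosis or 30 of cytosolic ribosomal proteins had one, and all 30 ribosomal genes had a control peak, with a median of 35.5 kb of flanking sequence open to such a peak. Odf1, a sperm tail gene, was the 1 of 12 genes of spermiogenesis, at 2.27 kb, and Fgf4 was the 1 of 11 pluripotency genes, at 25.1 kb. Among unrelated tissues the insulin genes Ins1 and Ins2 had peaks at 17.96 and 3.82 kb, 2 of 19 genes (10.5%).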

How the data were processed

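H3K79me2 peak lists were analysed, 1 for the control and 1 for EPZ5676, each filed under replicate 1 of its group; whether replicates were pooled, the aligner, the peak caller and the handling of inputs are, in the sources used here, not given. Trimmomatic, bcl2fastq 2.20.0.422, deepTools and mm10 are named in the submitters' processing notes. The deposited lists give a score, a fold enrichment ratio, a −log10 p and a −log10 q per peak, all the authors' values. The deposited score was the whole part of 10 times −log10 q in all but 4 control peaks. Depth is unknown.

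Positions were made 1-based and compared with RefSeq GRCm38.p6 gene spans, the assembly of mm10, by overlaps of 1 bp (Python 3.11.15, pandas 2.3.3, numpy 2.4.6). On X and Y lay 975 and 32 control peaks and no EPZ5676 peaks. Grid positions ran from 3 Mb to the last annotated gene of each autosome. Exact binomial intervals (95%) used SciPy 1.17.1, and the interval code was checked on simulated data. Strand was known for 79.6% of protein-coding genes, so shares of peaks before and past genes were void and are not given. No test between conditions was possible.

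The members and gene lists were chosen with earlier results of these data known. Named were the 10 widest, 10 highest-fold and 10 highest −log10 q peaks, the 10 runs, noncoding genes and protein-coding genes with most peak bases, and up to 4 genes per list with most bases; further list members, the 1-Mb windows and promoters were named after their values were seen. Alternatives changed the overlap rule, the −log10 q and width limits, the control list's p limit, the gene spans, the distances and the gap.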

Additional observations from a re-analysis of the deposited data

How the results depend on the processing

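No paired analysis was possible because each condition had 1 peak list, and for the same reason no replicate could be left out. A −log10 q of at least 2 left 132 peaks with a median width of 214 bp, a median fold of 3.13, median distances of 103.4 kb to a control peak and 44.1 kb to a gene, 34.8% within 50 kb of a control peak, 38.6% with a nearest gene under an EPZ5676 peak, 20.5% over a noncoding gene and 0% in runs of 3 or more. A width of at least 500 bp left 520 peaks with a median width of 601 bp, a median fold of 2.74, a gene distance of 59.8 kb, 26.3% within 50 kb of a control peak, 34.6% with a nearest gene under an EPZ5676 peak and 0% in such runs. Holding the control list to the lowest −log10 p of the EPZ5676 list, which removes weak control peaks, gave 2486 peaks, a control distance of 168.9 kb, 18.2% within 50 kb, 44.8% with a nearest gene under a control peak and 5.47% in runs of 3 or more; the grid positions were not redrawn. The run share was 3.64%, and 2.90% without peaks over any annotated gene, 1.78% with gaps of up to 5 kb and 14.4% with gaps of up to 50 kb. The share near a control peak was 4.68% within 10 kb and 40.9% within 100 kb. An alternative chosen after seeing the data, without the defensin and Speer regions, left 2384 peaks and changed no general value beyond its interval, and the matrix list again had 10 of 29 genes. Within 100 kb that list had 17 genes (58.6%, against 11.2% of all genes), and without peaks over any annotated gene 7 (24.1%, against 5.66%). Where a cause is not named, the cause was not tested. Depth sets which weak peaks were called, and it is unknown.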

Other observations

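The sequence around Myc also held peaks of the set. Myc, a growth-promoting transcription factor gene with no bases under either list's peaks, had 14 of them in its own 1-Mb window of chromosome 15 and the next one, at 7.62 to 872 kb, 13 of them with Myc as their nearest gene, with folds of 2.59 to 3.12. Only 2 of these, covering 443 bp, were within 50 kb of Myc. The count of 14 covers both windows, unlike the counts for single windows above, and neither window alone held 8 or more. Myc was chosen after its values were seen. Slc10a2 and Efnb2 flank the second most remote peak, at 1521 and 1991 kb, and Dsel and Cntnap5a the third, at 1437 and 2383 kb.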
